A study of Mus musculus with 9 samples.

Results

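The matrix metalloproteinases (MMPs), the ADAM proteases, the ADAMTS proteases and the tissue inhibitors of metalloproteinases (TIMPs) were followed as RNA in whole mouse liver. They were chosen by gene symbol alone, as the probe sets annotated to a single gene whose symbol starts with Mmp, Timp, Adam or Adamts and a number, with the brightest probe set over all 9 arrays standing for each gene. That gave 78 genes of the 19938 genes with such a probe set: 22 Mmp, 4 Timp, 34 Adam and 18 Adamts genes. Mmp15 and Adamts2 had no probe set annotated to them alone, and 2 further probe sets shared by several Adam genes were left out.

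Livers came from male C57/BL6 mice aged 8 to 9 weeks in 3 groups of 3, each hybridised to its own Affymetrix mouse gene array. The first group carried a hepatocyte-restricted deletion of NEMO together with a constitutive, whole-body loss of p21. The second carried the hepatocyte-restricted NEMO deletion with p21 intact, and the third was wild type. NEMO is the product of Ikbkg and a scaffold of the kinase complex upstream of NF-κB, while p21 is the product of Cdkn1a and an inhibitor of cyclin-dependent kinases. The promoter that drives the hepatocyte deletion is not given in the sources used here, no group lacked p21 alone, and the NEMO deletion leaves the gene intact in the other cells of the liver. Separate mice are known only from the sample identifiers, so p-values measure the spread between these samples.

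MMPs are zinc endopeptidases that are made as inactive proenzymes and that cut collagens, elastin and other matrix proteins once the propeptide is removed. ADAMs are membrane proteases that release the outer parts of other membrane proteins, ADAMTSs are secreted relatives that cut proteoglycans and procollagens, and TIMPs bind the active site of these enzymes and block it. In liver, MMPs and TIMPs are known above all from macrophages and stellate cells during the build-up and breakdown of scar matrix.

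The array medians lay between 6.47 and 6.58 on the log2 scale, and the hepatocyte genes Alb, Apoa1 and Ttr were at or above the 99.8th percentile of signal on every array. Ikbkg was lower in the NEMO knockout than in wild type by a log2 difference of -0.52 ± 0.11 (SE, n = 3 each, adjusted p = 0.0184) and lower in the labelled double knockout by -0.60 ± 0.11 (adjusted p = 0.00835). With single arrays left out in turn, the call in the NEMO knockout was lost without NEMO knockout replicates 1 or 3 (with adjusted p = 0.0524 and 0.0647) or wild type replicates 2 or 3 (0.0625 and 0.0729). The only Cdkn1a probe set, which is annotated to another transcript as well, went against its label. It had log2 signals of 11.14, 10.14 and 11.06 in the labelled double knockout, 9.76, 10.70 and 9.83 in the NEMO knockout, and 8.54, 9.64 and 7.83 in wild type, a log2 difference of 2.11 ± 0.45 between the labelled double knockout and wild type (adjusted p = 0.0194). This call was lost without labelled double knockout replicates 1 or 3 (with adjusted p = 0.0706 and 0.0764) or wild type replicates 1 or 3 (0.0633 and 0.062), and with only the 2 groups compared (0.0507). The first group is therefore called the labelled double knockout throughout. Whether the probes lie in the deleted part of the gene is not given in the sources used here.

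NEMO knockout livers held more RNA of a limited set of these genes, and no member was called lower. In NEMO knockout livers 18 of the 78 genes were higher than in wild type and 0 were lower (limma, Benjamini-Hochberg adjusted p under 0.05 over 28939 probe sets). The members' share was 23.1%, beside 7.68% of all probe sets. Among all genes, each by its brightest probe set, 9.28% were called, 6.78% higher and 2.50% lower. The genes called were 6 of 22 Mmp genes, 3 of 4 Timp genes, 4 of 34 Adam genes and 5 of 18 Adamts genes. Macrophage elastase Mmp12, collagenase Mmp13, gelatinase Mmp2, the inhibitors Timp1 and Timp2 and aggrecanase Adamts5 were higher by more than 1 on the log2 scale. The median log2 difference of the 78 members was 0.03, beside -0.03 over all genes. The 60 members not called lay between -0.31 (Adam39, a testis ADAM, adjusted p = 0.158) and 0.79 (Mmp7), and the 95% intervals of 51 of them stayed within 0.5 on either side of 0. Without NEMO knockout replicate 1 a single member, Adam20, was called lower, by -0.36 on the log2 scale (adjusted p = 0.0125). The Adam20 probe set was dim, in the lower tercile of signal (under 5.56 on the log2 scale).

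Markers of some of the liver's cell types differed between the same groups. Of the monocyte and infiltrating macrophage markers 9 of 12 were higher in the NEMO knockout and 0 lower, and their summed linear signal was 5108 to 5878 in the NEMO knockout and 2557 to 3391 in wild type. Of the stellate cell and fibroblast markers 11 of 14 were higher and 0 lower, with sums of 13226 to 15044 in the NEMO knockout and 7651 to 8392 in wild type. Kupffer cell markers were higher in 7 of 12 cases and lower in 1, Cd163, and summed to 11453 to 12738 in the NEMO knockout and 7397 to 8125 in wild type. Neutrophil markers were higher in 2 of 12 cases, cholangiocyte markers in 4 of 10, T and NK cell markers in 3 of 11 and endothelial markers in 1 of 12. Among all genes 6.78% were called higher and 2.50% lower in this comparison. Hepatocyte markers were called in 0 of 8 and B cell markers in 0 of 8. The labelled double knockout had sums of 5214 to 6098 for the monocyte and macrophage list, 12966 to 13910 for the stellate cell list and 11853 to 12431 for the Kupffer cell list. Against wild type, 9 of 12 monocyte and macrophage markers were higher there and 1 lower. Stellate cell and fibroblast markers were higher in 10 of 14 cases and lower in 0. Kupffer cell markers were higher in 7 of 12 and lower in 1. The shares of all genes in that comparison were 6.81% higher and 4.19% lower. T and NK cell markers summed to 618 to 712 there, 750 to 923 in the NEMO knockout and 640 to 658 in wild type. Higher there were 0 of 11 T and NK, 1 of 12 neutrophil, 3 of 10 cholangiocyte and 0 of 12 endothelial markers. In whole liver, more cells of a type and more RNA per cell cannot be told apart, and the part of these cell types in the members' differences was not tested.

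**Figure D1:**
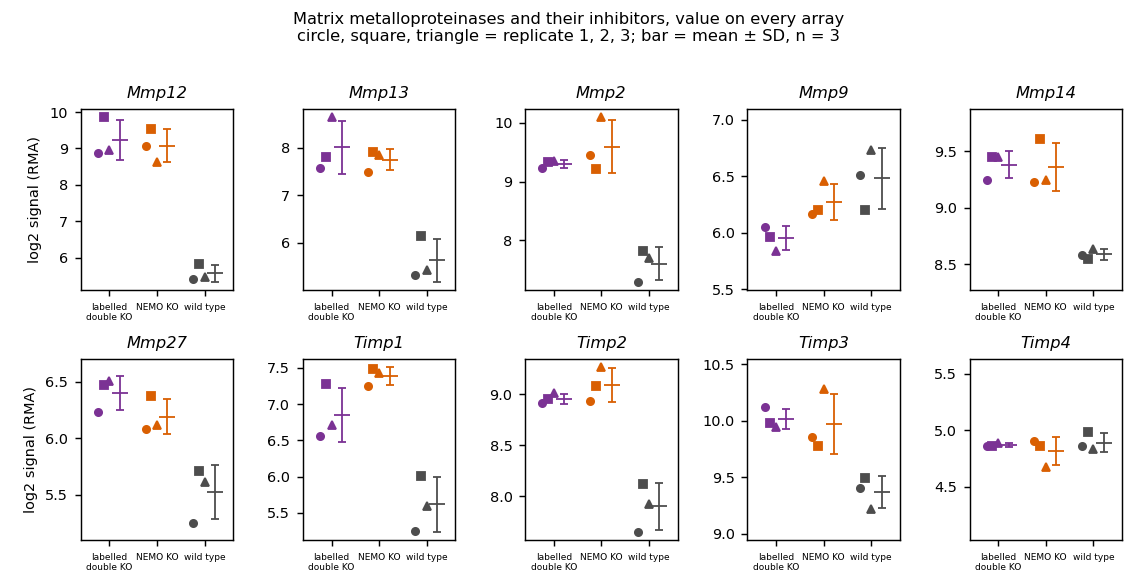
RMA log2 signal of the named Mmp and Timp genes on each of the 9 arrays, in the labelled double knockout, the NEMO knockout and wild type. Circles, squares and triangles are replicates 1, 2 and 3, and bars are the mean ± SD of 3 arrays. Both knockout groups lie above wild type for Mmp12, Mmp13, Mmp2, Mmp14, Mmp27, Timp1, Timp2 and Timp3.

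Mmp12, the macrophage elastase, is secreted mainly by macrophages and cuts elastin. It had log2 signals of 8.89, 9.86 and 8.96 in the labelled double knockout, 9.08, 9.53 and 8.63 in the NEMO knockout, and 5.40, 5.83 and 5.47 in wild type. All 6 knockout arrays were above all 3 wild type arrays. The log2 difference was 3.51 ± 0.28 between the NEMO knockout and wild type (11.4-fold, adjusted p = 0.00025) and 3.67 ± 0.28 between the labelled double knockout and wild type (12.7-fold, adjusted p = 0.00017).

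Mmp13 is the main interstitial collagenase of rodents and opens the triple helix of fibrillar collagen. Its log2 signals were 7.59, 7.82 and 8.65 in the labelled double knockout, 7.49, 7.91 and 7.86 in the NEMO knockout, and 5.32, 6.14 and 5.43 in wild type. Neither knockout group overlapped wild type, in which replicate 2 stood above the other two. The log2 difference from wild type was 2.13 ± 0.29 in the NEMO knockout (4.36-fold, adjusted p = 0.00228) and 2.39 ± 0.29 in the labelled double knockout (5.23-fold, adjusted p = 0.00109). Of the 4 collagenase genes Mmp13 was the only one called. Mmp8, the collagenase of neutrophil granules, had a log2 difference of 0.27 ± 0.07 with adjusted p = 0.0508 in the NEMO knockout, and 0.25 ± 0.07 with adjusted p = 0.0621 in the labelled double knockout, where it was called without NEMO knockout replicate 3 (adjusted p = 0.0494) and with array weights (0.0397). In the NEMO knockout Mmp8 was called with a trend in eBayes (adjusted p = 0.0458), after a second quantile normalisation (0.0452) and with array weights (0.0423). Its probe set was dim, in the lower tercile of signal (under 5.56 on the log2 scale), with 1 value, 4.19, repeated on 3 arrays.

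Mmp12 and Mmp13 sit side by side at one end of a run of 10 Mmp genes on chromosome 9 with no other protein-coding gene between them in the RefSeq annotation. The order is Mmp13, Mmp12, Mmp1b, Mmp3, Mmp1a, Mmp10, Mmp8, Mmp27, Mmp20 and Mmp7. Called higher against wild type among all genes were 6.78% (NEMO knockout) and 6.81% (labelled double knockout). In both knockout groups 3 of the 10 cluster genes, Mmp13, Mmp12 and Mmp27, were higher than wild type. The neighbours between them were not called: the log2 difference between the NEMO knockout and wild type was -0.11 ± 0.15 for stromelysin Mmp3 (adjusted p = 0.745) and 0.02 ± 0.08 for stromelysin Mmp10 (adjusted p = 0.919). Both of these probe sets were in the lower tercile of signal, under 5.56 on the log2 scale, where no member was called in any of the 3 comparisons as fitted here.

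Members of this cluster are known for AP-1 sites near their starts, and the stretches of 150 bases directly upstream of 5 cluster genes are shown to set called beside uncalled neighbours. The sequences are from RefSeq (GRCm38.p6, all on the plus strand) at chr9:7272364-7272513 for Mmp13, chr9:7347224-7347373 for the second annotated start of Mmp12, chr9:7445672-7445821 for Mmp3, chr9:7502192-7502341 for Mmp10 and chr9:7571246-7571395 for Mmp27. Capitals mark matches to the AP-1 letters TGANTCA and to TATAAA.
Mmp13: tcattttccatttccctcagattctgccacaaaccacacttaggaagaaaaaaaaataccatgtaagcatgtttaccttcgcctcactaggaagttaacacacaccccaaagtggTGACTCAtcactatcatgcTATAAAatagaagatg
Mmp12: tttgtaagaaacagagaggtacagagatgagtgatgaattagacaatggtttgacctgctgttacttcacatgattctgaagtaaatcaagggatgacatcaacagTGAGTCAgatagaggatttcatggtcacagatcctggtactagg
Mmp3: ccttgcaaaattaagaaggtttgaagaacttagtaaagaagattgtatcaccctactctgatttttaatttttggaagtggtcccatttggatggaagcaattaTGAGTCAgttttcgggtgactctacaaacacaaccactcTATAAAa
Mmp10: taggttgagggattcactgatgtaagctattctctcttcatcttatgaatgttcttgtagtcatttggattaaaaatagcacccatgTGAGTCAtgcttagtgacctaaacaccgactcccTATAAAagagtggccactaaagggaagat
Mmp27: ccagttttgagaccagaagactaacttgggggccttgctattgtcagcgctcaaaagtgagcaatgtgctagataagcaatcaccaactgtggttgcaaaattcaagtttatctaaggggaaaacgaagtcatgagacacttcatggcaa
The AP-1 match began 35 bases upstream of the start in Mmp13, 44 in Mmp12, 46 in Mmp3 and 63 in Mmp10. The stretch upstream of the other annotated start of Mmp12, not shown, held neither motif. Called Mmp13 and the shown start of Mmp12 thus had the match, as did uncalled Mmp3 and Mmp10, while called Mmp27 had neither motif in these 150 bases. In windows of 300 bases, 250 before to 50 after the start and on both strands, 8 of the 10 cluster genes held TGANTCA. Among all 27025 genes with such a window 8.97% held it, and so did 13 of 48 members with a window (27.1%). Over these members it stood in 2 of 14 genes called in any comparison and in 11 of 34 genes not called. The Runx letters ACCACA stood in 5 of 14 called and 7 of 34 uncalled members, beside 18.9% of all genes. TATAAA stood in 2 of 14 and 13 of 34, beside 15.7% of all genes.

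**Figure D2:**
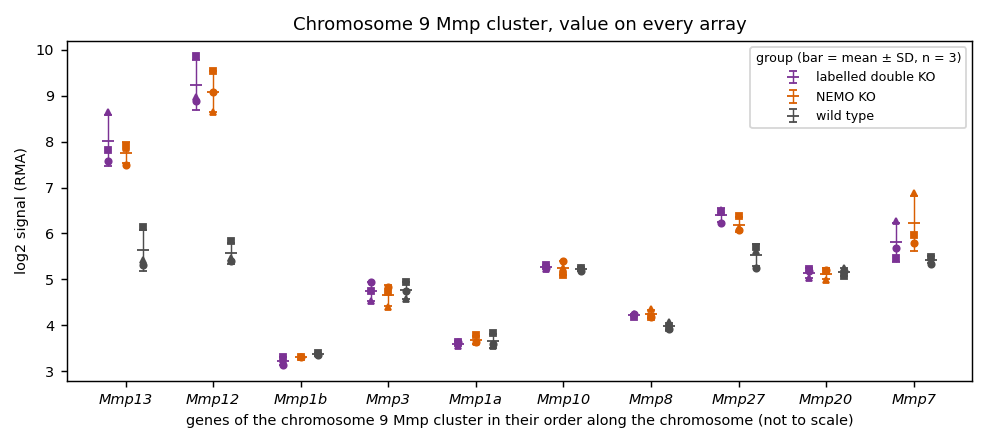
RMA log2 signal of the 10 Mmp genes of the chromosome 9 cluster on every array, in gene order and not to scale, by group (bar = mean ± SD, n = 3). Both knockout groups lie wholly above wild type for Mmp13, Mmp12, Mmp27 and the uncalled Mmp8. They lie wholly below it for Mmp1b, which was not called either. Mmp8 and Mmp1b are in the lower tercile of signal, and Mmp1b has the same value, 3.31, on all 3 NEMO knockout arrays. Heights of different genes come from different probes and are not comparable.

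Mmp27 is a little-studied relative of the stromelysins. Its log2 signals were 6.23, 6.47 and 6.50 in the labelled double knockout, 6.09, 6.37 and 6.12 in the NEMO knockout, and 5.26, 5.71 and 5.61 in wild type, with no overlap between either knockout group and wild type. Set against wild type, the log2 difference was 0.67 ± 0.13 in the NEMO knockout (adjusted p = 0.0149) and 0.87 ± 0.13 in the labelled double knockout (adjusted p = 0.00351). With single arrays left out in turn, its call in the NEMO knockout was lost without NEMO knockout replicate 2 (with adjusted p = 0.057). At the other end of the cluster lies Mmp7, matrilysin, an epithelial protease, with log2 signals of 5.69, 5.46 and 6.27 in the labelled double knockout, 5.80, 5.96 and 6.89 in the NEMO knockout, and 5.34, 5.50 and 5.46 in wild type. One array, NEMO knockout replicate 3, was far above the rest. The log2 difference of 0.79 ± 0.28 between the NEMO knockout and wild type, the largest among uncalled members, had adjusted p = 0.143 and was 0.45 without that array.

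The gelatinases cut denatured collagen and basement membrane collagen. Mmp2 (gelatinase A) had log2 signals of 9.23, 9.33 and 9.35 in the labelled double knockout, 9.46, 9.22 and 10.10 in the NEMO knockout, and 7.30, 7.82 and 7.70 in wild type. All knockout arrays were above all wild type arrays, and NEMO knockout replicate 3 was the highest of the 9. On the log2 scale the difference from wild type was 1.99 ± 0.21 in the NEMO knockout (3.96-fold, adjusted p = 0.000707) and 1.70 ± 0.21 in the labelled double knockout (3.24-fold, adjusted p = 0.00118).

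Mmp9 (gelatinase B), stored in neutrophil granules and also made by macrophages, went the other way. It had log2 signals of 6.05, 5.96 and 5.84 in the labelled double knockout, 6.17, 6.20 and 6.46 in the NEMO knockout, and 6.51, 6.20 and 6.74 in wild type. The labelled double knockout lay below both other groups on every array, while the NEMO knockout and wild type overlapped. Relative to wild type, the log2 difference was -0.53 ± 0.14 in the labelled double knockout (adjusted p = 0.0386), the only lower call among the members, and -0.21 ± 0.14 in the NEMO knockout (adjusted p = 0.445). With single arrays left out in turn, the call was lost without labelled double knockout replicates 1, 2 or 3 (with adjusted p = 0.0672, 0.0921 and 0.136), NEMO knockout replicate 2 (0.0589) or wild type replicates 1 or 3 (0.108 and 0.116). Without wild type replicate 1 another member, Adam24, was called lower, by -0.29 on the log2 scale (adjusted p = 0.0407). The Adam24 probe set was in the lower tercile of signal. All 3 labelled double knockout arrays and NEMO knockout replicate 1 had the same value of 4.18 for it.

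Mmp14 (MT1-MMP) is anchored in the cell membrane and, with Timp2 as adaptor, activates proMmp2. It had log2 signals of 9.24, 9.45 and 9.45 in the labelled double knockout, 9.23, 9.60 and 9.24 in the NEMO knockout, and 8.58, 8.54 and 8.63 in wild type, and both knockout groups were above wild type on every array. The log2 difference from wild type was 0.77 ± 0.11 in the NEMO knockout (1.71-fold, adjusted p = 0.00258) and 0.79 ± 0.11 in the labelled double knockout (1.73-fold, adjusted p = 0.00197). It was the only one of 5 measured membrane-type MMP genes called. Mmp23, which is membrane-bound as a proenzyme, was higher by 0.41 ± 0.08 on the log2 scale in the NEMO knockout (adjusted p = 0.0105) and by 0.43 ± 0.08 in the labelled double knockout (adjusted p = 0.00748). The 3 members that form the Mmp2 activation complex, Mmp2, Mmp14 and Timp2, were thus each higher in both knockout groups.

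Of the inhibitors, 3 of 4 were higher in each knockout group than in wild type. The shares of all genes called higher were 6.78% (NEMO knockout) and 6.81% (labelled double knockout). Timp1, an inhibitor induced in stellate cells and macrophages of injured liver, had log2 signals of 6.56, 7.28 and 6.71 in the labelled double knockout, 7.25, 7.49 and 7.43 in the NEMO knockout, and 5.25, 6.01 and 5.59 in wild type. Both knockout groups lay above wild type, and only 1 labelled double knockout array reached the range of the NEMO knockout. Set against wild type, the log2 difference was 1.77 ± 0.21 in the NEMO knockout (3.42-fold, adjusted p = 0.00128) and 1.23 ± 0.21 in the labelled double knockout (2.35-fold, adjusted p = 0.0067).

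Timp2, the adaptor of proMmp2 activation, had log2 signals of 8.91, 8.95 and 9.01 in the labelled double knockout, 8.93, 9.08 and 9.27 in the NEMO knockout, and 7.65, 8.12 and 7.93 in wild type. No knockout array overlapped wild type. On the log2 scale the difference from wild type was 1.20 ± 0.12 in the NEMO knockout (2.29-fold, adjusted p = 0.00062) and 1.06 ± 0.12 in the labelled double knockout (2.09-fold, adjusted p = 0.000858).

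Timp3, which binds the matrix and also blocks Adam17, had log2 signals of 10.12, 9.98 and 9.95 in the labelled double knockout, 9.86, 9.78 and 10.28 in the NEMO knockout, and 9.41, 9.49 and 9.22 in wild type. Neither knockout group overlapped wild type. The difference was 0.60 ± 0.13 on the log2 scale in the NEMO knockout (adjusted p = 0.0225) and 0.64 ± 0.13 in the labelled double knockout (adjusted p = 0.0145). The NEMO knockout call was lost without wild type replicates 1 or 3 (with adjusted p = 0.0589 and 0.0858), and the labelled double knockout call without labelled double knockout replicate 1 (with adjusted p = 0.0551) or wild type replicate 3 (0.0599). Timp4, known mainly from heart and fat, had log2 signals of 4.86, 4.86 and 4.89 in the labelled double knockout, 4.91, 4.86 and 4.68 in the NEMO knockout, and 4.86, 4.99 and 4.83 in wild type. Its 3 groups overlapped and its log2 difference from wild type was -0.08 ± 0.08 in the NEMO knockout (adjusted p = 0.633).

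**Figure D3:**
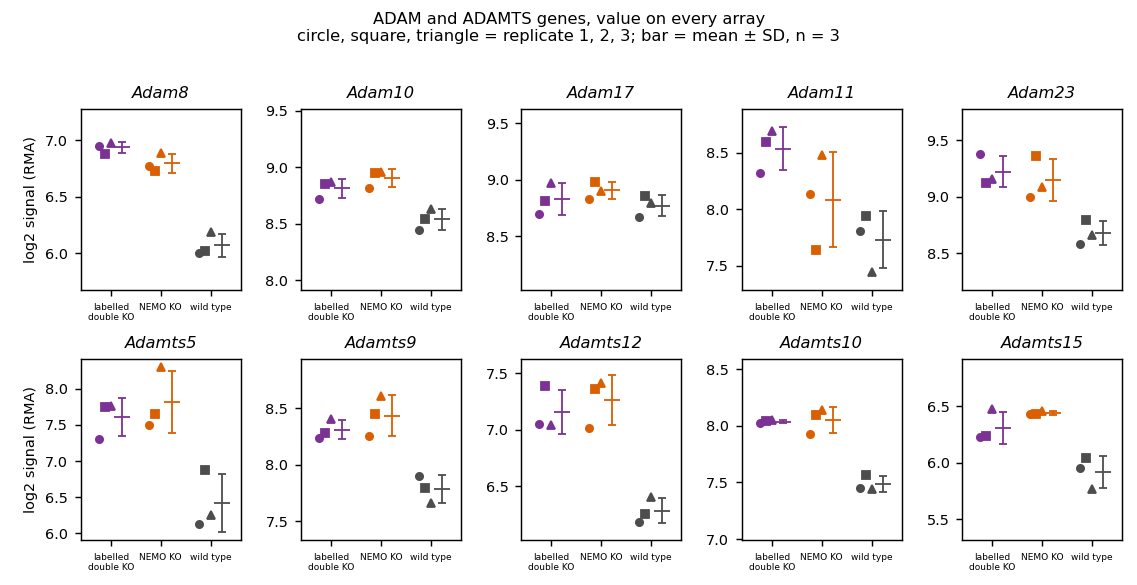
RMA log2 signal of the named Adam and Adamts genes on each of the 9 arrays, in the labelled double knockout, the NEMO knockout and wild type. Symbols are replicates 1 to 3 and bars the mean ± SD of 3 arrays. Adam8, Adam10, Adam23 and 5 Adamts genes separate both knockout groups from wild type, while the groups of Adam17 overlap.

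Of the 34 Adam genes 4 were called (11.8%) in the NEMO knockout, close to the 9.28% of all genes. Of the 20 ADAM genes listed with a catalytic zinc site in mouse or human, 3 were higher in the NEMO knockout. Of the 13 described as non-catalytic 1 was. Many of the remainder are known from testis, and 22 of the 34 Adam genes were in the lower tercile of signal. The 10 testis and germ cell markers summed to a linear signal of 305 to 360 in the NEMO knockout and 343 to 358 in wild type, with 0 of 10 called in any of the 3 comparisons.

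Adam8 is a sheddase of leukocytes, macrophages included. It had log2 signals of 6.95, 6.88 and 6.98 in the labelled double knockout, 6.77, 6.73 and 6.89 in the NEMO knockout, and 5.999, 6.02 and 6.19 in wild type. The 3 groups were tight and both knockout groups stood clear of wild type. Relative to wild type, the log2 difference was 0.73 ± 0.07 in the NEMO knockout (1.65-fold, adjusted p = 0.000656) and 0.87 ± 0.07 in the labelled double knockout (1.82-fold, adjusted p = 0.00024).

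Adam10 and Adam17 are the main constitutive and inducible sheddases, and release among others Notch fragments and TNF. Adam10 had log2 signals of 8.72, 8.85 and 8.87 in the labelled double knockout, 8.82, 8.95 and 8.96 in the NEMO knockout, and 8.45, 8.55 and 8.63 in wild type. Both knockout groups were above wild type on every array, but by little. The log2 difference from wild type was 0.37 ± 0.08 in the NEMO knockout (adjusted p = 0.018) and 0.27 ± 0.08 in the labelled double knockout, which missed the threshold (adjusted p = 0.0565). The NEMO knockout call was lost without NEMO knockout replicates 2 or 3 (with adjusted p = 0.0639 and 0.0715) or wild type replicates 1 or 2 (0.0668 and 0.0521), and Adam10 passed in the labelled double knockout without NEMO knockout replicate 1 (adjusted p = 0.0487). It also passed there with dim probe sets left out (0.0417), with array weights (0.0238) and after a second quantile normalisation (0.0152).

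Adam17 had log2 signals of 8.70, 8.82 and 8.98 in the labelled double knockout, 8.83, 8.98 and 8.90 in the NEMO knockout, and 8.67, 8.86 and 8.79 in wild type. The groups overlapped, with a log2 difference from wild type of 0.13 in the NEMO knockout (95% interval -0.06 to 0.33, adjusted p = 0.443). In the labelled double knockout it was 0.06, and -0.01 with arrays centred on their medians. The interval covers changes of up to 0.33 on the log2 scale. Adam15, which cuts cell adhesion proteins, was higher by 0.32 ± 0.08 in the NEMO knockout (adjusted p = 0.0466) and 0.32 ± 0.08 in the labelled double knockout (adjusted p = 0.0399). The first call was lost without labelled double knockout replicate 3 (with adjusted p = 0.0699), NEMO knockout replicates 1, 2 or 3 (0.0569, 0.0907 and 0.157) or wild type replicates 1, 2 or 3 (0.0724, 0.132 and 0.13), the second without labelled double knockout replicates 1 or 3 (with adjusted p = 0.118 and 0.0849), NEMO knockout replicate 2 (0.0597) or wild type replicates 1, 2 or 3 (0.0646, 0.113 and 0.119).

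Adam11 and Adam23 lack the catalytic site and are known as neuronal adhesion proteins. Adam23 had log2 signals of 9.38, 9.13 and 9.16 in the labelled double knockout, 9.001, 9.36 and 9.09 in the NEMO knockout, and 8.58, 8.79 and 8.66 in wild type, with both knockout groups above wild type. Set against wild type, the log2 difference was 0.47 ± 0.11 in the NEMO knockout (adjusted p = 0.0299) and 0.54 ± 0.11 in the labelled double knockout (adjusted p = 0.0142). The first was lost without NEMO knockout replicates 2 or 3 (with adjusted p = 0.0839 and 0.071) or wild type replicates 1 or 3 (0.105 and 0.0918), the second without labelled double knockout replicate 1 (with adjusted p = 0.0502) or wild type replicates 1 or 3 (0.0571 and 0.0518).

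Adam11 had log2 signals of 8.32, 8.59 and 8.69 in the labelled double knockout, 8.13, 7.64 and 8.47 in the NEMO knockout, and 7.81, 7.94 and 7.45 in wild type. The NEMO knockout arrays were spread widely and overlapped both other groups. Its log2 difference from wild type was 0.35 ± 0.21 in the NEMO knockout (adjusted p = 0.39) and 0.80 ± 0.21 in the labelled double knockout (adjusted p = 0.0399). The call in the labelled double knockout was lost without labelled double knockout replicates 1, 2 or 3 (with adjusted p = 0.0546, 0.108 and 0.138), NEMO knockout replicate 1 (0.0596) or wild type replicates 1, 2 or 3 (0.0872, 0.0583 and 0.139).

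ADAMTS genes were called higher in 5 of 18 cases in each knockout group. By role they were 3 of 7 hyalectanases, which cut aggrecan and versican, 0 of 2 measured procollagen N-proteinases and 2 of 9 others. Over all genes the shares called higher against wild type were 6.78% (NEMO knockout) and 6.81% (labelled double knockout). Whether any role differs from these shares was not tested. Adamts5, an aggrecanase, had log2 signals of 7.31, 7.75 and 7.77 in the labelled double knockout, 7.50, 7.65 and 8.30 in the NEMO knockout, and 6.13, 6.88 and 6.26 in wild type. Both knockout groups lay above wild type, with NEMO knockout replicate 3 the highest. On the log2 scale the difference from wild type was 1.39 ± 0.25 in the NEMO knockout (2.63-fold, adjusted p = 0.0086) and 1.19 ± 0.25 in the labelled double knockout (2.28-fold, adjusted p = 0.0165). The second was lost without labelled double knockout replicates 2 or 3 (with adjusted p = 0.0568 and 0.0683) or wild type replicates 1 or 3 (0.0615 and 0.0666). Its only neighbour of the family, Adamts1 on chromosome 16, had a log2 difference of 0.29 ± 0.17 in the NEMO knockout (adjusted p = 0.395) and 0.47 ± 0.17 in the labelled double knockout (adjusted p = 0.148).

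Adamts9, which cuts versican, was measured by 6 probe sets, all of them higher in both knockout groups. Its brightest probe set had log2 signals of 8.24, 8.28 and 8.40 in the labelled double knockout, 8.25, 8.45 and 8.61 in the NEMO knockout, and 7.90, 7.80 and 7.66 in wild type, without overlap between knockout and wild type arrays. Relative to wild type, the log2 difference was 0.65 ± 0.10 in the NEMO knockout (adjusted p = 0.00465), and over the 6 probe sets 0.32 to 0.93. In the labelled double knockout it was 0.52 ± 0.10 (adjusted p = 0.0118), and over the 6 probe sets 0.28 to 0.73. The brightest probe set lost its call there without labelled double knockout replicate 3 (with adjusted p = 0.0542). Adamts3, a procollagen processing enzyme with 16 probe sets, had 1 higher in the NEMO knockout, by 0.32 and not its brightest, and none of the 5 probe sets of Adamts17 was called.

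Adamts15, another versican-cutting enzyme, had log2 signals of 6.23, 6.23 and 6.47 in the labelled double knockout, 6.44, 6.43 and 6.46 in the NEMO knockout, and 5.95, 6.04 and 5.76 in wild type. Both knockout groups were above wild type. The log2 difference from wild type was 0.52 ± 0.09 in the NEMO knockout (adjusted p = 0.00794) and 0.39 ± 0.09 in the labelled double knockout (adjusted p = 0.0275), where the call was lost without labelled double knockout replicate 3 (with adjusted p = 0.0931) or wild type replicates 1 or 3 (0.0653 and 0.0902).

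Adamts12, which cuts cartilage oligomeric matrix protein, had log2 signals of 7.05, 7.38 and 7.04 in the labelled double knockout, 7.01, 7.36 and 7.41 in the NEMO knockout, and 6.19, 6.26 and 6.41 in wild type. Knockout and wild type arrays were well apart. Set against wild type, the log2 difference was 0.98 ± 0.13 in the NEMO knockout (1.97-fold, adjusted p = 0.00206) and 0.87 ± 0.13 in the labelled double knockout (1.83-fold, adjusted p = 0.00312).

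Adamts10, which associates with fibrillin microfibrils, had log2 signals of 8.02, 8.04 and 8.05 in the labelled double knockout, 7.93, 8.10 and 8.14 in the NEMO knockout, and 7.46, 7.56 and 7.44 in wild type. The labelled double knockout arrays lay within the range of the NEMO knockout and above wild type. On the log2 scale the difference from wild type was 0.57 ± 0.07 in the NEMO knockout (adjusted p = 0.00169) and 0.55 ± 0.07 in the labelled double knockout (adjusted p = 0.00169).

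**Figure D4:**
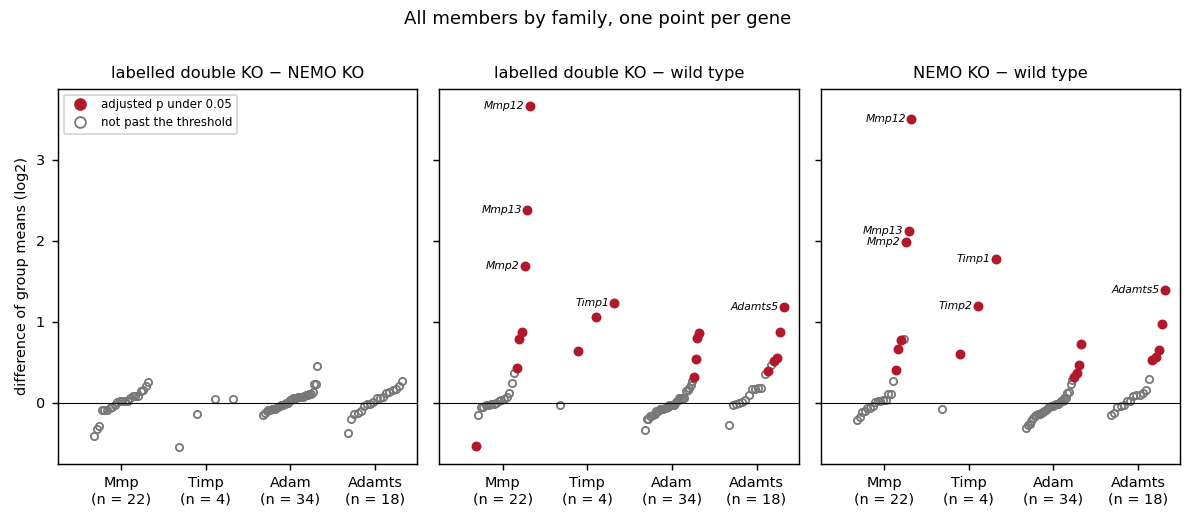
Log2 difference of group means for all 78 genes, 1 point per gene, by family and for each of the 3 comparisons. In the 2 comparisons with wild type the called genes lie above 0 except Mmp9, and no gene was called between the labelled double knockout and the NEMO knockout.

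The labelled double knockout was then set against the NEMO knockout, which asks what changes further among these genes where p21 is deleted as well by the labels. Of the 78 genes 0 were called, beside 0.197% of all probe sets (57 of 28939) and 0.155% of all genes. At an unadjusted p under 0.05 there were 4 genes, Timp1, Mmp9, Adamts6 and Adamts7, beside 7.46% of all probe sets. Of the 78 95% intervals, 65 lay within 0.5 on the log2 scale on either side of 0 and 76 within 1.

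The largest difference was that of Timp1, at -0.54 ± 0.21 on the log2 scale (95% interval -1.02 to -0.06, adjusted p = 0.624). Adam11 had 0.45 ± 0.21 (95% interval -0.01 to 0.91, adjusted p = 0.677) and Mmp7 had -0.41 ± 0.28 (95% interval -1.04 to 0.22, adjusted p = 0.81), which was -0.07 without NEMO knockout replicate 3. Mmp9 had -0.32 ± 0.14 (95% interval -0.63 to -0.02, adjusted p = 0.636) and was lower on every array of the labelled double knockout. None of these passed the threshold.

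The 18 genes higher in the NEMO knockout split evenly in this comparison, 9 lower and 9 higher, with log2 differences of -0.54 to 0.26. The interval held 0 for 17 of them, the exception being Timp1. For Mmp12 the log2 difference was 0.16 (95% interval -0.48 to 0.80), for Mmp13 0.26 (-0.39 to 0.91), for Mmp2 -0.29 (-0.76 to 0.18), and for Timp2 -0.14 (-0.41 to 0.14). Over the 18 genes the narrowest interval reached 0.16 to each side of its difference and the widest 0.65. A rise of 0.5 lies within the intervals of Mmp12, Mmp13 and Mmp27 (-0.09 to 0.507). A fall of 0.5 lies within those of Timp1 (-1.02 to -0.06), Mmp2 and Adamts5 (-0.76 to 0.35). The 6 probe sets of Adamts9 differed by -0.20 to -0.04, with 0 called.

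**Figure D5:**
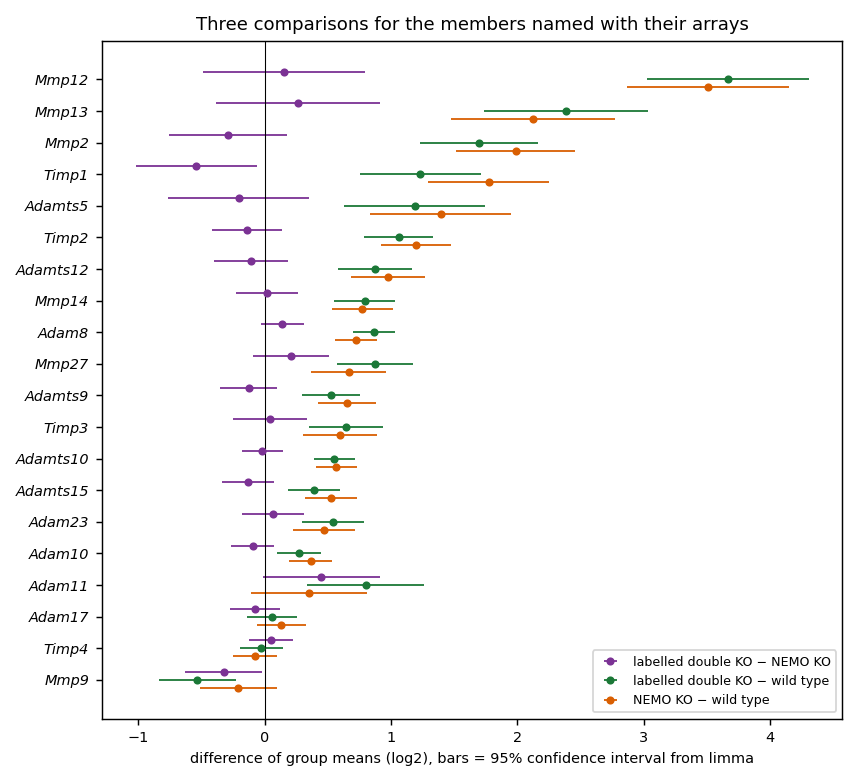
Log2 difference of group means with 95% intervals from limma for the 20 members named with their arrays, in the 3 comparisons. Mmp12 has the largest difference from wild type in both knockout groups. Intervals of labelled double knockout minus NEMO knockout hold 0 for all but Timp1 and Mmp9.

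Against wild type the labelled double knockout had 18 genes higher and 1 lower, 19 of 78 in all (24.4%), beside 9.32% of all probe sets. Among all genes 11.0% were called, 6.81% higher and 4.19% lower. Higher were 6 Mmp, 3 Timp, 4 Adam and 5 Adamts genes. Each knockout group had 18 genes higher, and 17 stood in both lists (94.4% of each), but both comparisons use the same wild type arrays. Adam10 was the gene in the first list only, though it passed in the labelled double knockout under 5 of 18 alternatives, and Adam11 was the gene in the second only. The difference between the knockout groups was not called for either. Without wild type replicate 3 the number higher in the labelled double knockout was 12. Adamts4, an aggrecanase, was among the largest of the 59 uncalled members, which lay between -0.34 and 0.47, with a log2 difference of 0.35 ± 0.13 (adjusted p = 0.146).

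Arrays within a group were not alike for these genes. Among the 18 genes higher in the NEMO knockout, NEMO knockout replicate 3 was the highest array of its group for 12 and replicate 1 for 0. In the labelled double knockout replicate 3 was highest for 10, and in wild type replicate 2 was highest for 11. These members share their arrays, so the counts are not independent.

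Genes that act on the proteases were called as well. The counts of this and the following lists stand beside the shares of all genes called against wild type. These were 6.78% higher and 2.50% lower in the NEMO knockout, and 6.81% higher and 4.19% lower in the labelled double knockout. Of 17 activators and membrane partners 5 were higher and 2 lower in each knockout group against wild type, and 0 were called between the labelled double knockout and the NEMO knockout. Plat, tissue plasminogen activator, had a log2 difference of 1.57 ± 0.15 in the NEMO knockout (adjusted p = 0.000501) and 1.002 ± 0.15 in the labelled double knockout (adjusted p = 0.00351). Rhbdf1, an iRhom that carries Adam17 to the cell surface, had 0.85 ± 0.09 in the NEMO knockout (adjusted p = 0.00075) and 0.89 ± 0.09 in the labelled double knockout (adjusted p = 0.000486). The tetraspanins Tspan15 and Tspan33, which partner Adam10, differed in direction: Tspan15 had 0.73 ± 0.17 (adjusted p = 0.0297) and Tspan33 -0.94 ± 0.19 (adjusted p = 0.0169) in the NEMO knockout. The call of Tspan15 was lost without NEMO knockout replicates 2 or 3 (with adjusted p = 0.0671 and 0.112) or wild type replicates 1, 2 or 3 (0.089, 0.0779 and 0.0915), and that of Tspan33 without NEMO knockout replicates 1 or 3 (with adjusted p = 0.0512 and 0.055) or wild type replicates 1 or 3 (0.061 and 0.0693).

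Of 16 other inhibitors 2 were higher and 1 lower in NEMO knockout livers, beside 6.78% and 2.50% of all genes. In the labelled double knockout 2 were higher and 4 lower, beside 6.81% and 4.19%. Thbs1 and Thbs2, thrombospondins that bind MMPs, had log2 differences of 1.77 ± 0.28 (adjusted p = 0.00468) and 1.01 ± 0.12 (adjusted p = 0.00117) in the NEMO knockout. Itih1, a serum hyaluronan-binding inhibitor chain, had -0.38 ± 0.08 in the NEMO knockout (adjusted p = 0.0175), lost without NEMO knockout replicate 3 (with adjusted p = 0.0713) or wild type replicates 1 or 3 (0.0659 and 0.0684). In the labelled double knockout it had -0.57 ± 0.08 (adjusted p = 0.00207), and Fetub, the plasma inhibitor of astacins, had -0.33 ± 0.08 (adjusted p = 0.0389), lost without labelled double knockout replicates 2 or 3 (with adjusted p = 0.114 and 0.143), NEMO knockout replicates 2 or 3 (0.057 and 0.0543) or wild type replicates 1, 2 or 3 (0.0599, 0.112 and 0.119).

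Of the 6 genes of the Adamts-like and papilin group, which lack a protease domain, 2 were higher in NEMO knockout livers and 3 in labelled double knockout livers. Adamtsl2, which binds fibrillin and the latent TGF-β complex, had a log2 difference of 1.37 ± 0.20 in the NEMO knockout (adjusted p = 0.00311) and 1.22 ± 0.20 in the labelled double knockout (adjusted p = 0.00478). Adamtsl1 had 0.77 ± 0.11 in the NEMO knockout (adjusted p = 0.00309) and 0.47 ± 0.11 in the labelled double knockout (adjusted p = 0.0297), the second lost without labelled double knockout replicates 1, 2 or 3 (with adjusted p = 0.0813, 0.0771 and 0.0895) or wild type replicates 2 or 3 (0.0783 and 0.0742). Adamtsl4 had 0.42 ± 0.11 in the labelled double knockout (adjusted p = 0.0413) and kept its call only where labelled double knockout replicate 2 was the array left out (adjusted p = 0.0566 to 0.147 without each of the others). Of 6 astacins, the family of Bmp1 and the meprins, 0 were called.

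Matrix proteins that the enzymes cut were called most often of these lists. Of 24 measured, 17 were higher in the NEMO knockout and 0 lower, with a median log2 difference of 0.65, beside -0.03 over all genes. Against wild type, 18 were higher in the labelled double knockout and 0 lower. Lumican (Lum) had a log2 difference of 2.50 ± 0.16 in the NEMO knockout, tenascin C (Tnc) 1.75 ± 0.21, Col1a1 1.69 ± 0.10 and Col1a2 1.60 ± 0.09, with adjusted p of 0.000117, 0.00124, 0.000106 and 0.000106. Periostin (Postn) was the only gene of these lists called between the labelled double knockout and the NEMO knockout, at 1.04 ± 0.09 (adjusted p = 0.00564). Some of these matrix genes are also in the stellate cell list.

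Of 24 membrane proteins shed by Adam10 or Adam17, 9 were higher and 0 lower in NEMO knockout livers, and 7 higher and 3 lower in the labelled double knockout. Vcam1, an endothelial adhesion molecule, had a log2 difference of 2.30 ± 0.23 in the NEMO knockout (adjusted p = 0.000577) and 2.80 ± 0.23 in the labelled double knockout (adjusted p = 0.000198). The receptor tyrosine kinase Axl had 1.18 ± 0.07 in the NEMO knockout (adjusted p = 0.000112). The 3 lower in the labelled double knockout were the growth factor receptors Erbb4 at -1.19 ± 0.21 (adjusted p = 0.00754), Egfr at -0.47 ± 0.11 (adjusted p = 0.0232) and Met at -0.39 ± 0.10 (adjusted p = 0.0393). Whether Egfr and Met keep their calls under the alternatives was not tested.

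Of 16 transcription factors known at metalloproteinase promoters, 3 were higher in NEMO knockout livers, 2 in labelled double knockout livers and none lower. Among all genes 6.78% and 6.81% were called higher. Jun, an AP-1 subunit, had a log2 difference of 1.11 ± 0.22 in the NEMO knockout (adjusted p = 0.0148), lost without NEMO knockout replicates 2 or 3 (with adjusted p = 0.0548 and 0.0655) or wild type replicates 1 or 3 (0.0563 and 0.0613). The labelled double knockout had 1.08 ± 0.22 (adjusted p = 0.0156), lost without labelled double knockout replicates 1 or 3 (with adjusted p = 0.0577 and 0.0669) or wild type replicates 1 or 3 (0.0598 and 0.0631). Spi1 (PU.1), a myeloid factor, had 1.005 ± 0.10 in the NEMO knockout (adjusted p = 0.000504) and 0.99 ± 0.10 in the labelled double knockout (adjusted p = 0.000429). Junb had 0.53 ± 0.14 in the NEMO knockout (adjusted p = 0.0472), a call kept only where wild type replicate 1 was the array left out (adjusted p = 0.0542 to 0.163 without each of the others).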

How the data were processed

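RNA of 9 whole livers, 3 per genotype, was measured on Affymetrix gene arrays. The authors deposited log2 values made with RMA, per the submitters' processing notes. RMA pulls all arrays toward a common distribution. The log base was taken from RMA and the value range, and the build of the array design is not given in the sources used here. Of 35556 probe sets, 6617 numbered below the first annotated one were taken as controls and left out. The other 28939 were tested with limma 3.58.1 in R 4.3.3 (lmFit, eBayes without trend, all 9 arrays, 1 mean per group) with Benjamini-Hochberg adjustment, and called at an adjusted p under 0.05. The fit was tested on simulated data. Differences are ± SE, with n = 3 arrays per group. Linear signal is 2 to the power of the log2 value. The arrays' small number limits the precision.

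Members called in any comparison with a difference of at least 0.5, all Timp genes, Adam10 and Adam17 are named with their arrays, smaller calls by their difference, and uncalled members by role or as the 3 largest differences of a comparison. Up to 4 called genes are named per list and comparison. Mmp1b, Mmp3, Mmp10, Mmp8, Adamts3, Adamts6, Adamts7, Adamts17, Adam20, Adam24, Cd163, Egfr and Met were named after their values were seen. Members and lists were chosen with earlier results of these data known. Near-identical genes (Mmp1a and Mmp1b, Adam1a and Adam1b, Adam6a and Adam6b, Adam26a, Adam26b, Adam34 and Adam34l) can share signal. Promoters are RefSeq's, and 48 of 78 members matched. Alternatives were other eBayes settings, scalings and filters, array weights, probe set means, a replicate block, fits of 2 groups, and leaving out each array.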

Additional observations from a re-analysis of the deposited data

How the results depend on the processing

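Of 37 called member values, 24 kept their call under all 18 alternatives, 13 lost it in at least 1, and 0 reversed. The number of members higher in the NEMO knockout than in wild type was 18, 14 to 18 without single arrays and 15 to 19 otherwise. The number lower was 0, 0 to 1 without single arrays, and 1 with array weights and with arrays centred on their medians, each time Adam20. Between the labelled double knockout and the NEMO knockout it stayed at 0 under every alternative run. Against wild type the labelled double knockout had 18 higher, 12 to 19 without single arrays and 16 to 20 otherwise. The 1 lower, Mmp9, became 0 with only the 2 groups compared and with all probe sets of the table, and ranged over 0 to 1 without single arrays. Uncalled values that changed sign were Adam17 (labelled double knockout minus wild type), at -0.00598 with centred arrays and -0.0145 to 0.123 without single arrays, Timp4 (the same comparison), at -0.0544 to 0.0236 without single arrays, and Ikbkg (labelled double knockout minus NEMO knockout), at -0.171 to 0.00541 without single arrays.

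The reported fit did not pair samples by replicate number, and whether these numbers mark shared handling was not tested. The deviations of same-numbered arrays correlated at 0.00568 to 0.18 (NEMO knockout and wild type), 0.0826 to 0.391 (labelled double knockout and NEMO knockout) and -0.116 to 0.095 (labelled double knockout and wild type), and 6 of 9 arrays matched best with their own number. With the replicate block the counts were 18 higher and 0 lower, 0 and 0, and 18 higher and 1 lower. Adam15 in the NEMO knockout and Adam11 and Adamts15 in the labelled double knockout missed the threshold there (adjusted p = 0.0543, 0.0692 and 0.0523), while Mmp8 in the NEMO knockout (0.0389) and Adam10 and Mmp8 in the labelled double knockout (0.0246 and 0.0469) passed it. All calls between the labelled double knockout and the NEMO knockout were 18 with the block, 31 with centred arrays and 10 without labelled double knockout replicate 3, beside 57. Of the calls between the NEMO knockout and wild type 73.7% were higher, and 52.7% with centred arrays. Between the labelled double knockout and wild type it was 62.3% and 44.1%, and between the labelled double knockout and the NEMO knockout 43.9% and 54.8%. The number called in the NEMO knockout against wild type was 2222, and 1382 without NEMO knockout replicate 3. For the labelled double knockout it was 2696, and 1601 without its replicate 3. None of the 35 members in the lower tercile of signal was called in the reported fit, and whether low signal had a part in this was not tested.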
